A study of Mus musculus with 17 samples.

Results

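Matrix metalloproteinases and their inhibitors were followed through a mouse study of PD-L1 on T cells, as 8 genes named by symbol: Mmp8, Mmp9, Mmp12, Mmp13, Mmp14, Mmp19, Timp1 and Timp2. They are 8 of 48397 genes in the bulk tables and 8 of the 28208 genes common to the single-cell matrices. Matrix metalloproteinases are zinc-dependent proteases that are made as inactive proforms and, once cleaved, cut collagens, elastin and other proteins outside the cell. Tissue inhibitors of metalloproteinases, the TIMPs, block the active site, and in tumours the enzymes come from macrophages, neutrophils, stromal cells and the tumour cells themselves.

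The single-cell part held 5 libraries of leukocytes sorted for CD45 from mouse pancreatic tumours 3 weeks after cells were implanted into the pancreas. Each genotype had 1 library: Cd274 (PD-L1) floxed on both alleles with CD4Cre (flfl_CD4Cre), floxed on 1 allele with CD4Cre (flWT_CD4Cre), CD4Cre alone, floxed on both alleles without Cre (flfl), and wild type (WT). File names of the flWT_CD4Cre and WT libraries contradict these labels, which were followed. CD4-driven Cre is active in T cells, so the myeloid cells and tumour cells described here carry an intact Cd274 gene under the design, and the mice had no treatment. The bulk part held 12 libraries labelled as wild-type splenic T cells, all with CD3 and CD28 stimulation, 3 each titled PDL1_Fc, PD1_Fc, Ctrl_Fc and Control. Against that label, the PDL1_Fc and Control libraries held next to no T cell RNA, with 3 to 10 counts a library over 6 T cell markers and a summed level of 0.162 to 0.624 CPM (counts per 1e6 counts). In PD1_Fc and Ctrl_Fc the same markers summed to 711 to 853 CPM. Fc proteins were used at 2.5 ug/ml, Control had stimulation alone, and the protocol names PD-1 Fc and a control IgG Fc. The treatment field contradicts the title in 4 libraries, since it gives PD1 Fc for PDL1_Fc_1 to PDL1_Fc_3 and PDL1 Fc for PD1_Fc_3. Age, strain and the number of animals behind a library are not given in the sources used here. Whether the 3 libraries of a bulk group are separate cultures is not given either. Bulk p-values measure the spread between libraries of a group, estimated over all bulk groups together, and this spread may be technical.

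Cells kept were 3456 in flfl_CD4Cre, 2977 in flWT_CD4Cre, 4253 in CD4Cre, 2796 in flfl and 2813 in WT, with median UMIs (unique molecular identifiers, each 1 captured RNA molecule) of 6154 to 13727. The first 3 of these libraries shared 1414 to 1856 cell barcodes pair by pair, and their 833 to 1520 low-count copies were left out, while flfl and WT shared 12. These 3 libraries list 31053 genes and the other 2 list 28692, so no fold was taken between libraries of the 2 sets. Cells were classed by the UMIs of marker genes, which gave 600 to 1343 macrophages, 143 to 583 monocytes, 68 to 199 neutrophils and 80 to 656 tumour cells a library. The macrophage class held C1qa at 3753 to 8564 CPM (here UMIs of the class), the neutrophil class S100a8 at 19241 to 128211 CPM, and the tumour class Krt8 at 1254 to 2383 CPM although the labels describe a CD45 sort. The epithelial marker Epcam was at 2.32 to 12.6 CPM in the tumour class of the first 3 libraries and at 198 and 364 CPM in flfl and WT, and Cldn4 was at 0 in flfl_CD4Cre and CD4Cre. Cells classed as monocytes also carried macrophage markers at a median of 27.8 to 38.3 UMIs per 10000. The libraries are labelled as tumour-infiltrating T cells, yet myeloid and tumour cells made up much of them. Cd274 in T cells was at 53.2 CPM (95% Poisson interval 34.7 to 77.9) in flfl_CD4Cre and 72.5 CPM (56.5 to 91.6) in CD4Cre, and since the floxed stretch is not given, these counts do not check the deletion. Orders of level given for each gene are among the 4 classes named above. Cells set apart, such as 1 to 17 stromal cells a library, and unclassed cells are given where they held more. With 1 library a genotype no test across genotypes was possible, and all intervals cover counting error only.

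Mmp13, Mmp12 and Mmp8 lie near each other on chromosome 9 of GRCm38, at 7272514 to 7283331, 7344381 to 7369499 and 7558456 to 7568485, all on the plus strand. Mmp9 lies on chromosome 2 at 164940780 to 164955850, Mmp14 on chromosome 14 at 54431612 to 54445364 and Mmp19 on chromosome 10 at 128790910 to 128800824, again on the plus strand. Timp1 lies on chromosome X at 20870166 to 20874735 on the plus strand and Timp2 on chromosome 11 at 118301069 to 118355740 on the minus strand. The 250 bases before the start site are shown for the 3 neighbours on chromosome 9, because Mmp8 was highest in neutrophils or monocytes while its neighbours were in most libraries highest in macrophages, as described for each gene further on. Promoter entries from RefSeq (GRCm38.p6) were matched for 6 of the 8 genes, all but Mmp9 and Mmp19. RefSeq gives 2 start sites for Mmp12, and the window shown ends before the one at 7347374, which lies 2993 bases inside the span above and where 2 GENCODE transcripts start. The other, at 7344397, is the start of 1 GENCODE transcript, and its window holds the ETS letters once and neither of the other motifs. The RefSeq start of Mmp8 lies 27 bases before the span above. Capitals mark 3 motifs searched on both strands. An AP-1 motif was taken as the letters TGANTCA and a TATA box as the letters TATAAA. An ETS motif was taken as AGGAAG, which reads CTTCCT where it lies on the opposite strand, and no match overlaps another.
Mmp12, chr9:7347124-7347373, plus strand: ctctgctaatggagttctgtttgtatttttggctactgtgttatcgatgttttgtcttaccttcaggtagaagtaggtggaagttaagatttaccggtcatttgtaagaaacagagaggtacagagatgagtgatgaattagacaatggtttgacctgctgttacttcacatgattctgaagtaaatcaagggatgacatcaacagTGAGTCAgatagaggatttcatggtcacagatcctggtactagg
Mmp13, chr9:7272264-7272513, plus strand: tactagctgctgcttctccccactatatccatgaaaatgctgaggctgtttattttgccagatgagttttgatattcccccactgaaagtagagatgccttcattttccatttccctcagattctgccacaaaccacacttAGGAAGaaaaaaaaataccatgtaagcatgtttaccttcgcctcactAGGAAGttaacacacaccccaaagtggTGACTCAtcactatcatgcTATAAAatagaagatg
Mmp8, chr9:7558179-7558428, plus strand: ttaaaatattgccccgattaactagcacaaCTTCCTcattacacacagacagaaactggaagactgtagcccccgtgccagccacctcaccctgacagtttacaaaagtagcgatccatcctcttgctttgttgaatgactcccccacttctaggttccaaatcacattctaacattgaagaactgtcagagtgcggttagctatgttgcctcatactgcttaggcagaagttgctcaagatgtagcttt

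The AP-1 motif begins 44 bases before the start site shown for Mmp12 and 35 bases before it in Mmp13, and these letters are not in the window of Mmp8, Mmp14, Timp1 or Timp2. AP-1 is a family of Fos and Jun factors known to act on metalloproteinase promoters. Of all 32851 promoters of the same length, 6.75% hold the AP-1 letters, 12.4% the TATA box and 29.5% the ETS letters. Mmp13 also has a TATA box 16 bases before the start and ETS letters at 109 and 62 bases. Mmp8 has the ETS letters at 220 bases, Mmp14 at 209 bases, and Timp1 at 175 and 99 bases. The GC content was 39.6% in Mmp12, 40.4% in Mmp13 and 44.8% in Mmp8, against 54.4% in Timp1, 55.2% in Mmp14 and 68% in Timp2. These matches describe the letters and no binding was measured.

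Mmp12, the macrophage elastase, which cuts elastin, was carried by macrophages in all 5 libraries. Its level there was 672 CPM (661 to 683) in flfl_CD4Cre, 1406 (1384 to 1428) in flWT_CD4Cre, 1241 (1218 to 1265) in CD4Cre, 785 (769 to 801) in flfl and 881 (867 to 895) in WT. In monocytes it was 574 CPM in flfl_CD4Cre, 1060 in flWT_CD4Cre, 1800 in CD4Cre, 80.3 in flfl and 123 in WT. Monocytes therefore held less Mmp12 than macrophages in every library except CD4Cre, where they held more. Neutrophils had 32.4 to 340.5 CPM, lymphoid cells 14.4 to 52.6 CPM and tumour cells 6.47 to 32.2 CPM, and the lymphoid range overlaps both others. Unclassed cells had 396.9 to 1801 CPM. They were above macrophages in flfl_CD4Cre with 1261 CPM (1222 to 1301) and in flWT_CD4Cre with 1801 CPM (1759 to 1843). In CD4Cre, flfl and WT they were not above macrophages.

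Mmp12 was unevenly spread over macrophages. The tenth of macrophages with the most Mmp12 held 78.6% of the class's Mmp12 UMIs in flfl_CD4Cre, 64.7% in flWT_CD4Cre, 68.1% in CD4Cre, 66.4% in flfl and 69.6% in WT. By comparison the tenth with the most Mmp14 held 29.9 to 39.9% of the Mmp14 UMIs. At least 1 Mmp12 UMI was found in 44.7 to 64.9% of macrophages and in 8.81 to 25.5% of lymphoid cells, whose median depth was 4824 to 8585 UMIs against 11750 to 16567 in macrophages. With each cell thinned to 2000 UMIs, which keeps 1196 of 1265 macrophages of flfl_CD4Cre, 614 of 678 of flWT_CD4Cre, 580 of 600 of CD4Cre and all of flfl and WT, the shares were 25.5 to 48.2% in macrophages and 3.3 to 5.88% in lymphoid cells.

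Mmp13 is the main collagenase of the mouse and cuts fibrillar collagens. In macrophages it was at 206 CPM (200 to 212) in flfl_CD4Cre, 337 (326 to 348) in flWT_CD4Cre, 252 (241 to 262) in CD4Cre, 172 (164 to 179) in flfl and 128 (123 to 134) in WT. Monocytes were lower in each library, with 73.5 CPM in flfl_CD4Cre, 79.6 in flWT_CD4Cre, 151 in CD4Cre, 7.3 in flfl and 1.61 in WT. Neutrophils had 2.16 to 63.8 CPM and tumour cells 0.6 to 18.4 CPM, so macrophages had the highest level of the 4 classes in every library.

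Mmp8, the neutrophil collagenase, is stored in neutrophil granules. In neutrophils it was at 343 CPM (299 to 391) in flfl_CD4Cre, 73.9 (55 to 97.2) in flWT_CD4Cre, 232 (177 to 299) in CD4Cre, 161 (135 to 192) in flfl and 691 (639 to 747) in WT. The share of neutrophils with an Mmp8 UMI was 21.7, 7.04, 5.88, 17.9 and 52% in the same order. The levels in flWT_CD4Cre and CD4Cre thus rest on few cells. Monocytes came next in flfl_CD4Cre, flfl and WT with 96.1, 25.1 and 58.4 CPM, and exceeded neutrophils in flWT_CD4Cre with 114 CPM and in CD4Cre with 351 CPM. Macrophages had 22.4 CPM in flfl_CD4Cre, 42 in flWT_CD4Cre, 81.1 in CD4Cre, 3.76 in flfl and 3.99 in WT. The last 2 values lie close to the 1.16 to 4.42 CPM of lymphoid cells, and tumour cells stayed under 1 CPM in all 5 libraries. Neutrophil marker UMIs in monocytes had a median of 2.49, 3.51, 3.02, 6.14 and 8.36 per 10000 in flfl_CD4Cre, flWT_CD4Cre, CD4Cre, flfl and WT, and their part in the Mmp8 of monocytes was not tested. Unclassed cells held Mmp8 too, with 129.7 CPM in flfl_CD4Cre, 238 (223 to 254) in flWT_CD4Cre, 99.4 in CD4Cre, 3.63 in flfl and 7.61 in WT. In flWT_CD4Cre this was above neutrophils and monocytes, and these cells held 44.6% of the library's Mmp8 UMIs.

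**Figure D1:**
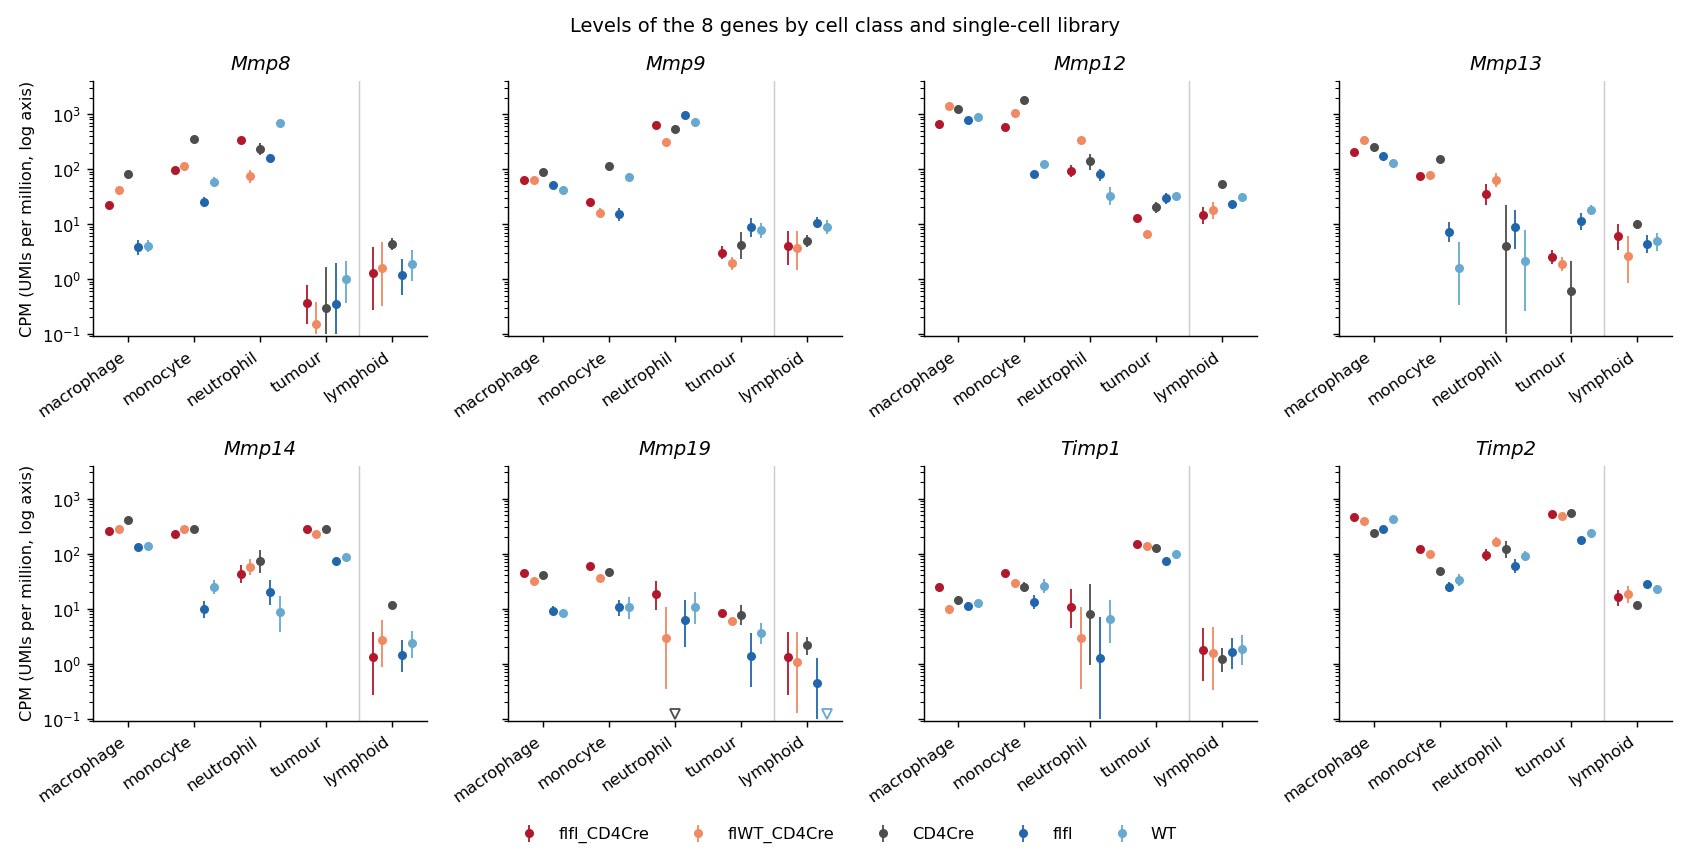
Levels of the 8 genes as CPM on a log axis in the 4 cell classes and, right of the line, in lymphoid cells, with 1 point for each of the 5 libraries, bars for the exact 95% Poisson interval and open triangles for a count of 0. Mmp12 and Mmp13 sit highest in macrophages in most libraries, Mmp9 in neutrophils, and Timp1 in tumour cells, among the classes drawn. Stromal and unclassed cells are not drawn.

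Mmp9, a gelatinase that cuts denatured and basement membrane collagens, was highest in neutrophils among the 4 classes. Its level there was 647 CPM (587 to 712) in flfl_CD4Cre, 312 (271 to 356) in flWT_CD4Cre, 531 (445 to 629) in CD4Cre, 954 (888 to 1025) in flfl and 711 (658 to 767) in WT. Macrophages had 62.6, 63.5, 87.8, 50.6 and 42 CPM in the same order, below every neutrophil value, and tumour cells had 1.94 to 8.95 CPM.

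The Mmp9 of macrophages came mostly from a handful of cells. Those with at least 10 Mmp9 UMIs, a limit chosen after the values were seen, numbered 20 of 1265 macrophages in flfl_CD4Cre, 11 of 678 in flWT_CD4Cre, 12 of 600 in CD4Cre, 10 of 933 in flfl and 6 of 1343 in WT. They held 94.5% of the class's Mmp9 UMIs in flfl_CD4Cre, 93.8% in flWT_CD4Cre, 87.1% in CD4Cre, 60.6% in flfl and 74.1% in WT. All remaining macrophages had 3.5 to 20.2 CPM of Mmp9, against 3.69 to 10.6 CPM in lymphoid cells. Neutrophil markers were at medians of 1.29, 1.04, 0.706, 5.77 and 9.34 UMIs per 10000 in the Mmp9-rich macrophages and at 1.67, 1.14, 1.53, 5.43 and 7.72 in macrophages with no Mmp9 UMI, in the same order of libraries, so both kinds of cell carried them at like low levels.

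These Mmp9-rich macrophages also held more Mmp12. Their Mmp12 level was 2593 CPM against 607 CPM in macrophages with no Mmp9 UMI in flfl_CD4Cre, and 6374 against 1313 CPM in flWT_CD4Cre. In CD4Cre it was 2966 against 1186 CPM, in flfl 4287 against 731 CPM, and in WT 6557 against 811 CPM. Mmp12 was thus higher in the Mmp9-rich cells of all 5 libraries, although the 6 to 20 cells of a library are no replicates. The Mmp9-rich cells were also deeper, with medians of 19111, 21266, 16366, 12655 and 17242 UMIs against 16598, 13676, 13273, 11549 and 11767 UMIs in those with no Mmp9 UMI. Their C1q UMIs, which define the class, were lower, with medians of 67.4, 107, 53.6, 121 and 122 against 97.7, 110, 83.8, 206 and 252 per 10000. The part of either in these levels was not tested. No intervals were taken for these few cells, so close values give no direction. Mmp13 was at 484, 2610, 279, 405 and 585 CPM against 199, 281, 247, 172 and 120 CPM, higher in each but close in CD4Cre. Mmp14 was higher in 4 of the 5 and close in flfl, with 128 against 132 CPM. Timp2 was at 242, 365, 258, 284 and 204 CPM against 479, 399, 234, 285 and 433 CPM. It was lower in flfl_CD4Cre and WT and close in flWT_CD4Cre, CD4Cre and flfl. Mmp8 was at 166, 64.1 and 305 CPM against 19.1, 40.4 and 75 CPM in flfl_CD4Cre, flWT_CD4Cre and CD4Cre. In flfl and WT the 10 and 6 Mmp9-rich cells held no Mmp8 UMI, against 3.33 and 4.01 CPM in the others. So few cells cannot show a level below these, and no direction is given. Ctsk, the collagen-cutting cathepsin K, stood at 183 CPM against 1.76 CPM in flfl_CD4Cre, but at 0, 5.26, 14.2 and 0 CPM against 4.98, 27.3, 1.14 and 0.263 CPM in the Mmp9-rich cells and the cells without Mmp9 of the other libraries.

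**Figure D2:**
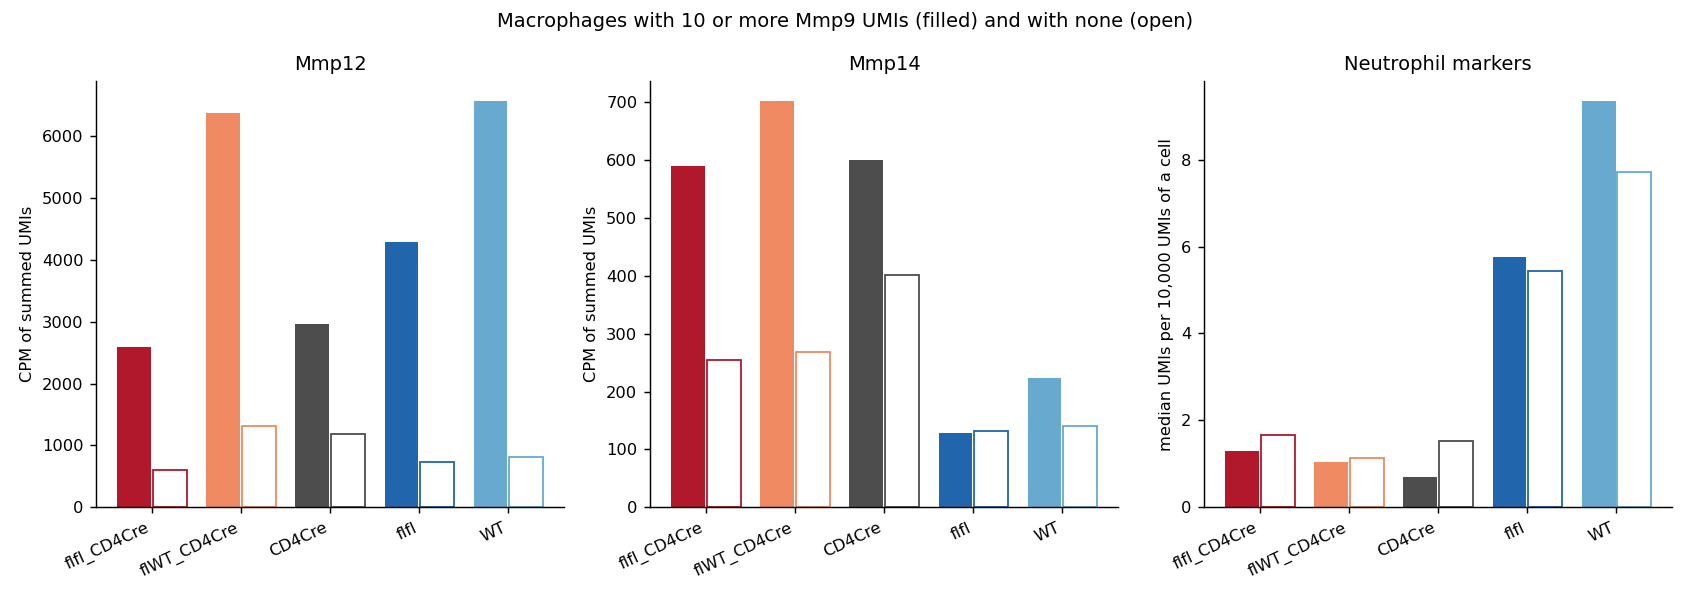
Mmp9-rich macrophages (at least 10 Mmp9 UMIs) against macrophages with no Mmp9 UMI in each of the 5 libraries, as filled and open bars. The panels give Mmp12 and Mmp14 as CPM of summed UMIs and the median of neutrophil marker UMIs per 10000 UMIs of a cell, with Mmp12 from 2593 to 6557 CPM in the Mmp9-rich cells and from 607 to 1313 CPM in the others.

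Mmp14, a membrane-type enzyme that cuts collagen at the cell surface and activates pro-Mmp2, was shared by macrophages, tumour cells and stromal cells. In flfl_CD4Cre, flWT_CD4Cre and CD4Cre monocytes shared it too. Macrophages had 261 CPM (254 to 268) in flfl_CD4Cre, 279 (269 to 289) in flWT_CD4Cre, 412 (398 to 426) in CD4Cre, 132 (126 to 139) in flfl and 140 (134 to 146) in WT. Tumour cells had 279, 230, 282, 72.6 and 88.2 CPM in the same order, and the 2 ranges overlap. The 17, 15 and 7 stromal cells of the first 3 libraries had 392 CPM (346 to 442), 419.7 (357 to 490.3) and 519 (424 to 629), above both classes in the first 2 and overlapping the interval of macrophages in CD4Cre, and those of flfl and WT held 2 and 8 UMIs. Monocytes had 228 CPM in flfl_CD4Cre, 286 in flWT_CD4Cre and 277 in CD4Cre, against 9.93 in flfl and 25.2 in WT.

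Mmp19, an enzyme that cuts basement membrane proteins, was low. Monocytes had 60.2 CPM in flfl_CD4Cre, 36 in flWT_CD4Cre, 47.1 in CD4Cre, 10.5 in flfl and 10.7 in WT. Macrophages had 45.2, 31.1, 41.2, 9.19 and 8.46 CPM in the same order, close to the monocytes of the same library, and tumour cells had 1.38 to 8.22 CPM. Stromal cells of flfl_CD4Cre had 67.3 CPM (49.1 to 90) from 45 UMIs, which overlaps the monocytes, and those of the other libraries had 0 to 19 UMIs.

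Timp2, an inhibitor that also binds Mmp14 to bring pro-Mmp2 to the cell surface, was high in tumour cells, macrophages and stromal cells. Tumour cells had 537 CPM (527 to 548) in flfl_CD4Cre, 483 (475 to 492) in flWT_CD4Cre, 538 (513 to 563) in CD4Cre, 179 (164 to 195) in flfl and 239 (227 to 252) in WT. Macrophages had 469 CPM in flfl_CD4Cre, 399 in flWT_CD4Cre, 237 in CD4Cre, 286 in flfl and 430 in WT, so tumour cells were above macrophages in the first 3 libraries and below them in flfl and WT. Stromal cells had 933, 765.5, 619 and 746 CPM in flfl_CD4Cre, flWT_CD4Cre, CD4Cre and WT, above both classes. In CD4Cre, however, their interval (515 to 738) overlaps that of tumour cells. The 1 stromal cell of flfl held 1 UMI. Monocytes had 24.8 to 123 CPM and neutrophils 60 to 164 CPM.

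Timp1, a secreted inhibitor of most of these enzymes, was highest in tumour cells among the 4 classes. They had 151 CPM (146 to 157) in flfl_CD4Cre, 138 (134 to 142) in flWT_CD4Cre, 127 (115 to 140) in CD4Cre, 73.6 (64.1 to 84.2) in flfl and 96.9 (89.2 to 105) in WT. Monocytes had 13.4 to 44.1 CPM and macrophages 9.62 to 24.8 CPM, both below every tumour cell value. Neutrophils had 1 to 7 UMIs of Timp1 a library. The few stromal cells, set apart, were higher than tumour cells in each library with intervals apart, at 623 CPM (565 to 686) in flfl_CD4Cre, 375 (316 to 442) in flWT_CD4Cre, 329.6 (255 to 419) in CD4Cre and 477 (339 to 652) in WT, and with 22 UMIs in the 1 cell of flfl.

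Genes found together in single macrophages were counted after thinning to 2000 UMIs. Mmp12 was found in 71% of macrophages with an Mmp13 UMI and in 16.4% of those without in flfl_CD4Cre (exact binomial intervals 64.2 to 77.2 and 14.1 to 18.8). The shares were 83.6 and 34.5% in flWT_CD4Cre, 72.7 and 32.8% in CD4Cre, 57.1 and 30.6% in flfl, and 62.4 and 31.9% in WT. In each library the intervals of both shares stood apart. Mmp8 was found in 10.5% of macrophages with Mmp12 and 0.673% of those without in flfl_CD4Cre, in 12.2 and 1.26% in flWT_CD4Cre, and in 17.5 and 3.47% in CD4Cre. In flfl and WT it was found in at most 1.23% of either.

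Timp2 gave no such pattern with Mmp14, its binding partner on the cell surface. It was found in 32.4% of macrophages with Mmp14 and 45.6% of those without in flfl_CD4Cre, and in 37.9 and 46.9% in flWT_CD4Cre. The remaining pairs of shares were 27.1 and 28.8% in CD4Cre, 39.9 and 39.2% in flfl, and 53.2 and 51.1% in WT. The intervals stood apart in flfl_CD4Cre, where cells with Mmp14 had the lower share, and overlapped in the other 4 libraries. Cells of 1 library are not replicates, so these shares describe the libraries.

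**Figure D3:**
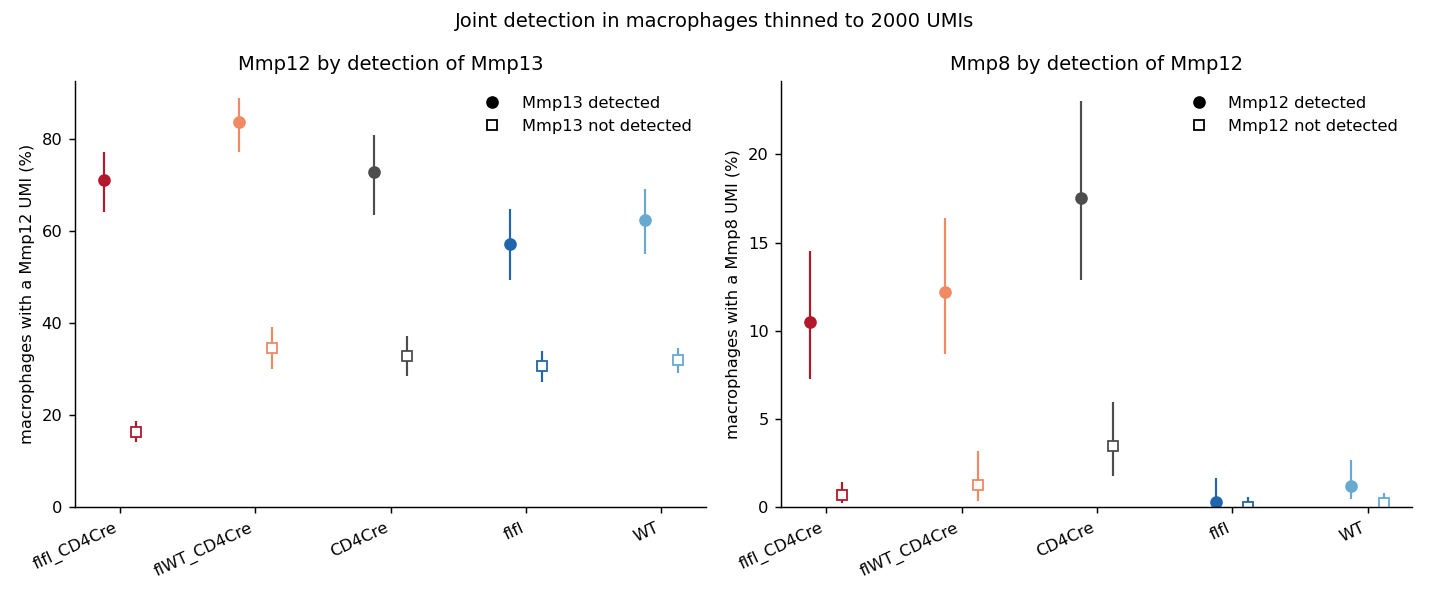
Percent of macrophages with an Mmp12 UMI by detection of Mmp13, and with an Mmp8 UMI by detection of Mmp12, after thinning to 2000 UMIs, in each of the 5 libraries, with exact 95% binomial intervals. Mmp12 stands between 57.1 and 83.6% in macrophages with Mmp13 and between 16.4 and 34.5% in those without.

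Monocytes of the library labelled flfl_CD4Cre held less Mmp8, Mmp12 and Mmp13 and more Timp2 than those of the library labelled CD4Cre. Their summed Mmp9 was lower too, but this rested on few cells. The comparison asks what loss of PD-L1 on T cells goes with in other cells of the tumour. A gene was counted as past the fold when its levels differed at least 2-fold with intervals apart and at least 50 CPM in the higher library. Mmp8 was at 96.1 CPM (89.2 to 104) in flfl_CD4Cre and 351 CPM (335 to 368) in CD4Cre, a level 3.65-fold lower. Mmp12 was at 574 CPM (557 to 592) and 1800 CPM (1763 to 1837), or 3.14-fold lower, and Mmp13 at 73.5 CPM (67.4 to 80) and 151 CPM (141 to 162), or 2.06-fold lower. Timp2 was at 123 CPM (115 to 131) and 48.6 CPM (42.8 to 55), or 2.52-fold higher.

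Mmp9 in monocytes was at 25.6 CPM in flfl_CD4Cre and 112 CPM in CD4Cre, 4.36-fold lower, and this rested on few cells. Monocytes with at least 10 Mmp9 UMIs numbered 7 of 583 and 10 of 489 in these libraries and held 61.7 and 92.5% of the class's Mmp9. The other monocytes had 9.95 CPM in flfl_CD4Cre and 8.6 CPM in CD4Cre. In all, 5 of the 7 members at the level were past the fold in monocytes, against 2.89% of 3457 genes, and their median log2 ratio was -1.04, against 0.07 over all genes. In monocytes of these libraries the macrophage marker list was at medians of 33.3 and 38.3 UMIs per 10000, the monocyte list at 74.3 and 69.8, and the share of these in the difference was not tested. As a mean over cells, Mmp13 differed by -0.46 log2, under the fold.

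In macrophages 1 of 6 members was past the fold, Mmp8 with 22.4 CPM in flfl_CD4Cre and 81.1 CPM in CD4Cre, 3.63-fold lower, against 2.4% of 3382 genes. Just short of the fold were Timp2, 1.98-fold higher with 469 against 237 CPM, and Mmp12, 1.85-fold lower with 672 against 1241 CPM. The members had a median log2 ratio of -0.57 there, against 0.00 over all genes. Macrophage markers were at medians of 209 and 220 UMIs per 10000 in these 2 libraries. Neutrophils had 0 of 5 members past the fold, against 8.08% of 3491 genes, but 5 as a mean over cells of each cell's CPM, so the count depends on the averaging. Tumour cells had 0 of 3, against 0.823% of 3523 genes. In tumour cells Timp2 was at 537 and 538 CPM, Mmp14 at 279 and 282 CPM and Timp1 at 151 and 127 CPM in flfl_CD4Cre and CD4Cre.

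The library labelled flWT_CD4Cre, or 1 floxed allele with CD4Cre, was set against the same CD4Cre library, so that both comparisons share it. In monocytes 3 of 6 members were past the fold, against 2.79% of 3329 genes, and 5 with cells thinned or 6 with 2 times the marker minimum. Mmp8 was at 114 CPM in flWT_CD4Cre and 351 CPM in CD4Cre, 3.07-fold lower, and Mmp9 at 16.1 and 112 CPM, 6.91-fold lower. Timp2 was at 97.7 and 48.6 CPM, 2.01-fold higher. Mmp12 was at 1060 and 1800 CPM and Mmp13 at 79.6 and 151 CPM, both short of the fold. Mmp9 again rested on few cells, 2 of 437 monocytes in flWT_CD4Cre, and the other monocytes had 4.88 CPM.

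Macrophages of the library labelled flWT_CD4Cre had 0 of 6 members past the fold, against 1.63% of 3314 genes, and 1 with cell means or thinned, and tumour cells 0 of 3, against 0.946% of 3490 genes. Neutrophils had 3 of 6, against 26.9% of 3274 genes, a background at which the count says little, and 0 with cells thinned. There Mmp8 was at 73.9 CPM in flWT_CD4Cre and 232 CPM in CD4Cre, 3.14-fold lower. An Mmp8 UMI was found in 7.04% of 199 neutrophils of flWT_CD4Cre and 5.88% of 68 of CD4Cre, so both levels rest on few cells. Mmp12 was at 340.5 and 138 CPM, 2.47-fold higher, with 99.1% of the UMIs of flWT_CD4Cre in the tenth of neutrophils with the most, and Mmp13 had 44 UMIs against 1. As a mean over cells both turned round, to -0.82 log2 for Mmp12 and -0.58 log2 for Mmp13, and with cells thinned Mmp12 was at -0.99 log2. Neutrophils of these libraries were shallow, with median UMIs of 3390 in flWT_CD4Cre and 1887 in CD4Cre.

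The library labelled flfl, with floxed alleles and no Cre, was set against WT. In monocytes Mmp8 was at 25.1 CPM in flfl and 58.4 CPM in WT, 2.33-fold lower, and Mmp9 at 15.2 and 71.3 CPM, 4.7-fold lower, so 2 of 3 members were past the fold, against 4.02% of 2711 genes. The monocytes with at least 10 Mmp9 UMIs numbered 2 in flfl and 3 in WT, and the others had 6.75 and 9.82 CPM. Monocytes of WT had the lowest count of any library, 143 cells. In neutrophils Mmp8 was at 161 CPM in flfl and 691 CPM in WT, 4.28-fold lower. Mmp12 in neutrophils was at 80.1 and 32.4 CPM, 2.47-fold higher, but -0.07 log2 with cells thinned. These were 2 of 4 members, against 16.2% of 2465 genes, and 1 with cell means or thinned. S100a8 in the same neutrophils was at 70387 CPM in flfl and 128211 CPM in WT, and the part of neutrophil makeup in the difference was not tested. In macrophages 0 of 5 members and in tumour cells 0 of 3 were past the fold, against 2.53% of 2376 and 2.16% of 2822 genes.

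**Figure D4:**
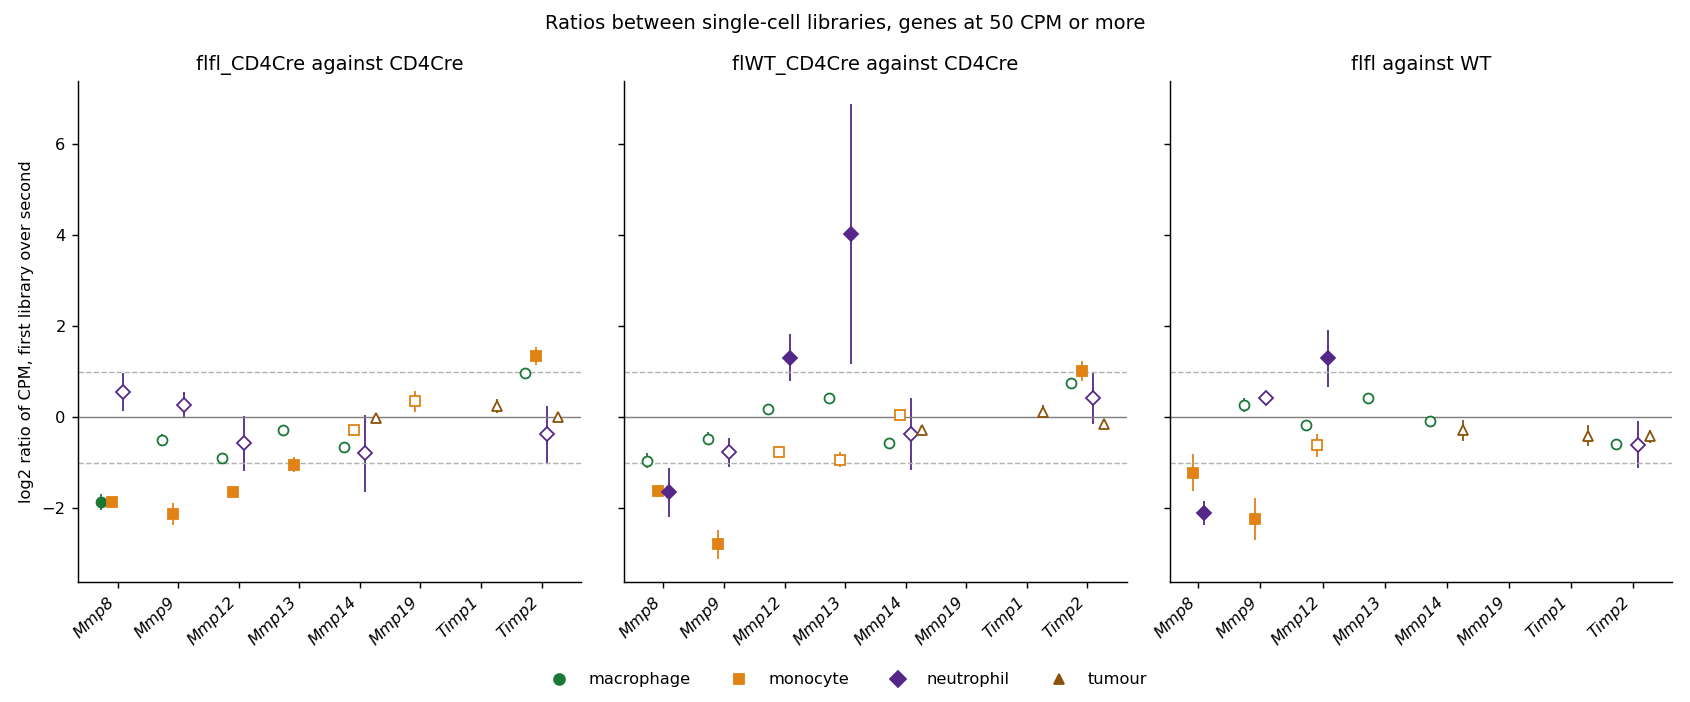
Log2 ratio of CPM for each member at 50 CPM or more and each cell class in flfl_CD4Cre against CD4Cre, flWT_CD4Cre against CD4Cre, and flfl against WT, with filled symbols past the fold, bars for the counting interval of the ratio and dashed lines at 2-fold. Mmp8 and Mmp9 in monocytes lie below 0 in all 3 comparisons, with folds from 2.33 to 6.91 lower, and the first 2 comparisons share the CD4Cre library. The Mmp9 ratios rest mostly on the 2 to 10 monocytes a library with at least 10 Mmp9 UMIs. Without them Mmp9 was at 9.95, 4.88, 8.6, 6.75 and 9.82 CPM in flfl_CD4Cre, flWT_CD4Cre, CD4Cre, flfl and WT.

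Other genes of matrix breakdown, from 4 lists, were led by protease partners and by inhibitors outside the TIMP family. None of the 17 other metalloproteinases, of which 16 were measured, reached a mean of 50 CPM in any of the 4 classes. Mmp2, a gelatinase, came closest with a mean of 46.7 CPM in macrophages (26.2 to 71.1), ahead of Mmp25 with 14.6 CPM in neutrophils and Mmp15 with 10.7 CPM in tumour cells. Among 9 other inhibitors, Cst3, the cathepsin inhibitor cystatin C, had a mean of 2587 CPM in macrophages and 4158 CPM in monocytes. Slpi, an inhibitor of neutrophil elastase, had 615 CPM in neutrophils, and Timp3, a matrix-bound TIMP, had 67.9 CPM in tumour cells (9.98 to 106). Among 13 activators and partners, the cathepsins Ctss and Ctsb had means of 4626 and 3032 CPM in macrophages, Lcn2, which binds Mmp9, had 3537 CPM in neutrophils, and Bsg, an inducer of metalloproteinases, had 985 CPM in tumour cells. Of the 9 genes of the ADAM family, Adam8 was at 169 CPM in macrophages and 236 CPM in monocytes, and the sheddases Adam10 and Adam9 were at 129.5 and 118 CPM in tumour cells.

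Adam8 was lower in flfl_CD4Cre than in CD4Cre by the same rule, with 217 against 519 CPM in monocytes and 140.5 against 379 CPM in macrophages. Slpi in macrophages was at 50.3 CPM in flfl_CD4Cre and 21.5 CPM in CD4Cre, 2.33-fold higher. In neutrophils Cst3 was at 791 and 3407 CPM, 4.31-fold lower, while the endocytic receptor Lrp1 was at 170 and 70.8 CPM and the cathepsin Ctsl at 221 and 90.5 CPM, both higher. By list, other inhibitors at the level had 1 of 2 past the fold in neutrophils and 0 of 2 in tumour cells. The ADAM family had 1 of 5 in macrophages, 1 of 5 in monocytes, 0 of 5 in neutrophils and 0 of 4 in tumour cells. Activators and partners had 2 of 9 past the fold in neutrophils, and 0 of 8 in macrophages, 0 of 8 in monocytes and 0 of 9 in tumour cells. Over all genes the shares past the fold were 8.08% in neutrophils, 2.4% in macrophages, 2.89% in monocytes and 0.823% in tumour cells.

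Genes with the most similar pattern were sought among 5679 genes by Pearson's r of log2(CPM + 10) over 20 points, the 4 classes in 5 libraries. The points take in both sets of single-cell libraries and share libraries and depth. The part of the difference between the sets in r was not tested, and the values are a description. Mmp12 was most like C3ar1 (r = 0.961), the receptor for complement C3a, and Apobec1 (0.957). Mmp13 was most like the lysosomal proteases Ctsb (0.944) and Ctsd (0.913), with Dhrs3 (0.924) between them. Mmp9 was most like Gca (0.928), the neutrophil marker Trem1 (0.927) and Tmem154 (0.918), and Mmp8 like the leukotriene receptor Ltb4r1 (0.906), Cyb5r4 (0.906) and Il17ra (0.902). Among the genes most like Mmp14 were Sh3pxd2b (0.943), an adaptor of invadopodia, and Rrbp1 (0.932). Mmp19 was most like Dusp3 (0.933), Dennd1a (0.902) and Nipa2 (0.898). Timp1 was most like the actin-binding genes Tpm1 (0.976) and Cnn3 (0.971) and Tspan17 (0.976). Timp2 had the loosest match, with Tns1 (0.881), Vcam1 (0.841) and Trim47 (0.837).

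The bulk libraries fell into 2 sets of unlike makeup, and these genes were abundant in only 1 of them. PDL1_Fc and Control had 14.9 to 18.6 M gene counts, where M stands for 1e6, with 8.95 to 11.2% of reads not aligned, while PD1_Fc and Ctrl_Fc had 3.47 to 5.01 M, with 79.9 to 80.4% not aligned. The summed level of 10 macrophage markers was 4099 to 4285 CPM in PDL1_Fc, 9.79 to 26.3 CPM in PD1_Fc, 8.75 to 28.7 CPM in Ctrl_Fc and 3949 to 4604 CPM in Control. The T cell markers went the other way. Cd3e, a signalling chain of CD3, averaged 0.11 ± 0.10 CPM in PDL1_Fc, 248 ± 17.2 in PD1_Fc, 258 ± 14.8 in Ctrl_Fc and 0.036 ± 0.062 in Control (SD, n = 3 each). Trac, the receptor's alpha constant chain, averaged 0.064 ± 0.065, 97.9 ± 5.41 and 93.7 ± 12.2 CPM in PDL1_Fc, PD1_Fc and Ctrl_Fc, and was at 0 in Control. Cd3g and Trbc2 were at 0 in all PDL1_Fc and Control libraries, and Cd3d was at 0 in all PD1_Fc and Ctrl_Fc libraries. PDL1_Fc and Control thus held macrophage markers and almost no T cell markers, against their label. In bulk samples fewer cells of a type and less RNA per cell cannot be told apart.

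Mmp12 had 39336, 41317 and 44003 counts in the 3 PDL1_Fc libraries, against 46020, 53587 and 48236 in Control. It had 79, 19 and 22 counts in PD1_Fc, against 15, 13 and 75 in Ctrl_Fc. The highest of these, PD1_Fc_1 and Ctrl_Fc_3, are also the libraries with the highest macrophage marker sums of their groups, 26.3 and 28.7 CPM, and the part of those markers in the counts was not tested. Mmp12 in PD1_Fc and Ctrl_Fc was 0.12 to 0.59% of its Control mean, and the macrophage lysozyme Lyz2 was 0.131 to 0.608% of its own.

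Mmp14 had 6701, 5631 and 7221 counts in PDL1_Fc, against 7762, 7528 and 6914 in Control, and Mmp13 had 3048, 3162 and 3420, against 3976, 4229 and 3046. Mmp9 had 651, 577 and 591 counts in PDL1_Fc, against 752, 779 and 739 in Control. Mmp19 had 458, 441 and 510, against 585, 634 and 516, and Mmp8 had 238, 253 and 281, against 349, 326 and 318. The counts follow depth, and as CPM the groups overlap for each of these genes except Mmp8, with 15.5, 17 and 17.5 CPM in PDL1_Fc and 18.8, 17.6 and 19 CPM in Control.

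Timp1 had 5569, 5177 and 6007 counts in PDL1_Fc, against 7347, 6667 and 6029 in Control, and Timp2 had 2757, 2629 and 3098, against 3736, 3410 and 3263. In PD1_Fc and Ctrl_Fc these inhibitors stayed detectable in every library, Timp1 with 19, 20 and 23 counts, against 14, 13 and 23, and Timp2 with 13, 7 and 17, against 13, 16 and 15. Timp1 there was 0.90 to 1.33% and Timp2 0.829 to 2.13% of the Control mean.

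Set per kilobase of exon, Timp1 and Mmp12 led in the PDL1_Fc and Control libraries. Timp1 had a mean of 408 ± 15.3 CPM per kb in PDL1_Fc and 419 ± 23.8 in Control (SD, n = 3 each), and Mmp12 had 373 ± 15.7 and 380 ± 32.1. The Timp1 range lay above that of Mmp12 in both groups, over 888 exon bases for Timp1 and 7237 for Mmp12. These lengths merge the exons of all transcripts of a gene and can exceed the length of 1 transcript. Orders between genes therefore depend on the length used, and other lengths were not tried. Before division by length, Control averaged 2751 CPM for Mmp12 and 372 CPM for Timp1. Mmp13 followed with 77.9 ± 3.05 in PDL1_Fc and 77.9 ± 8.82 in Control, and Mmp14 with 70.8 ± 6.45 and 69.2 ± 1.11, which overlap the Mmp13 values. Timp2 had 47 ± 2.27 and 49.6 ± 2.31 CPM per kb. Mmp9 had 11.1 ± 0.804 and 11.9 ± 0.511, Mmp19 had 8.62 ± 0.341 and 9.11 ± 0.495, and Mmp8 had 6.88 ± 0.429 and 7.62 ± 0.324, and these 3 genes kept this order with ranges apart in both groups.

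**Figure D5:**
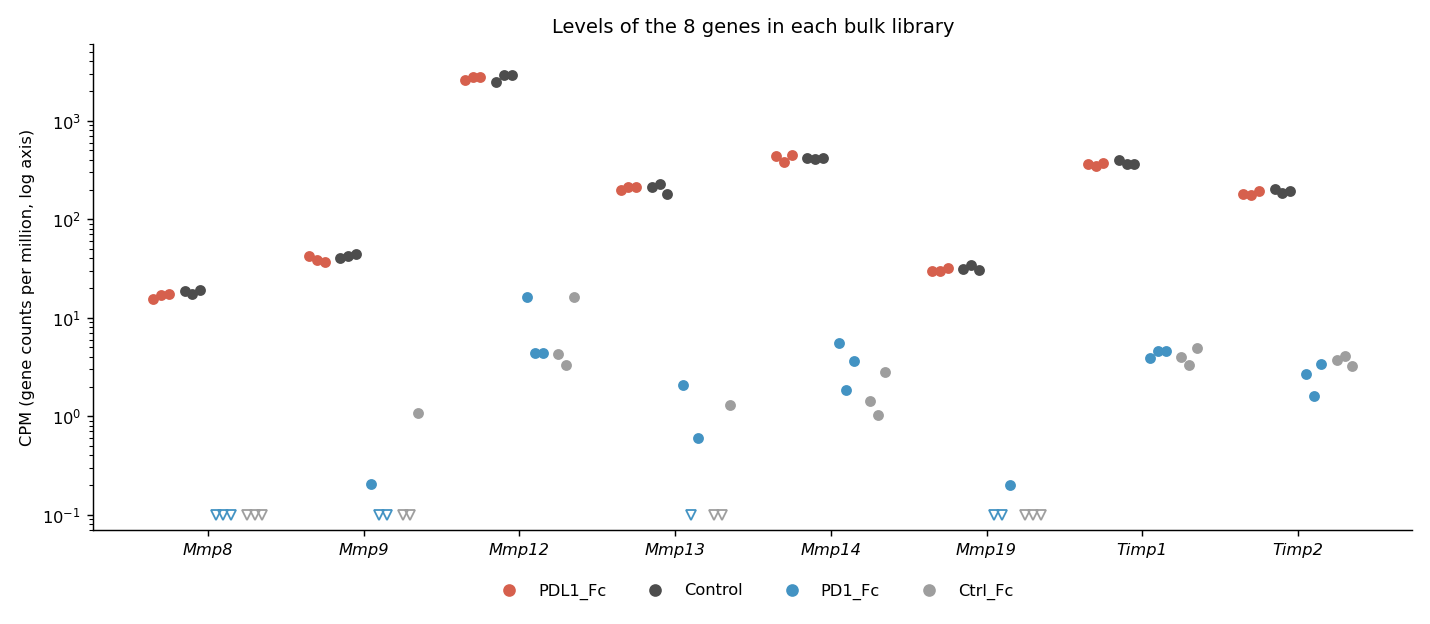
CPM of the 8 genes in the 12 bulk libraries on a log axis, with 1 point a library and open triangles for a count of 0. PDL1_Fc and Control libraries lie above PD1_Fc and Ctrl_Fc libraries for every gene, with Mmp12 at 2567 to 2777 CPM in PDL1_Fc and 3.35 to 16.1 CPM in Ctrl_Fc.

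PD1_Fc against Ctrl_Fc asks what soluble PD-1 does to stimulated T cells beyond a control Fc, and none of the 8 genes passed. Mmp14 came closest, with 27, 8 and 18 counts in PD1_Fc, against 5, 4 and 13 in Ctrl_Fc, and the groups overlap as CPM. Its change was 1.08 log2 (SE 0.40, edgeR adjusted p = 0.919). Timp1 differed by 0.13 log2 (SE 0.29), Timp2 by -0.43 log2 (SE 0.33), Mmp12 by 0.06 log2 (SE 0.72) and Mmp13 by 0.91 log2 (SE 1.03), with adjusted p of 0.932 to 1. Mmp9 had 1 count in PD1_Fc and 5 in Ctrl_Fc, Mmp19 had 1 and 0, and Mmp8 had 0 in both, so no fold is given for these. Over all genes 0.0478% of 14653 passed, and the members' median change was 0.09 log2, against 0.05 over all genes.

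PDL1_Fc against Control, both rich in macrophage markers, gave 0 of 8 members and 0% of all genes past the threshold by edgeR, with 528 genes at an unadjusted p under 0.05 and 0 genes by DESeq2. The members' changes ran from -0.15 log2 for Mmp8 (SE 0.14) to 0.03 log2 for Mmp14 (SE 0.10), all with an adjusted p of 1. Mmp8 was the only member whose groups did not overlap, a pattern of 7.81% of genes here. In these libraries the smallest SE was 0.09 log2, for Timp1 and Timp2. The difference between the changes in PD1_Fc against Ctrl_Fc and in PDL1_Fc against Control passed for 0 of 8 members and 0.00682% of genes, with Mmp14 nearest at 1.05 log2 (SE 0.41, edgeR adjusted p = 0.834).

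Ctrl_Fc against Control crosses the 2 sets. All 8 members fell, as did all 10 macrophage markers, against 91.8% of genes called in either direction and 47.4% lower. All 9 lymphoid markers tested, of 15 listed, rose, Cd3e by 11.65 log2 (SE 0.24, edgeR adjusted p = 2.13e-51) and Trac by 12.38 log2 (SE 0.34, adjusted p = 2.46e-43), so the groups differ in cell makeup, and a response to the control Fc cannot be told apart from that. Timp2 fell by 6.46 log2 (SE 0.16) and Timp1 fell by 7.22 log2 (SE 0.15), with edgeR adjusted p of 7.53e-47 and 9.2e-51. The enzymes with counts in Ctrl_Fc also fell, with changes of -7.35 log2 for Mmp9, -8.55 log2 for Mmp14, -9.08 log2 for Mmp12 and -9.40 log2 for Mmp13. Mmp8 was at least 73.9-fold and Mmp19 at least 129-fold lower, against a floor of 3 counts over the group. With these 2 genes at their bound the members' median was -7.29 log2, against -0.13 over all genes, and every Ctrl_Fc library lay below every Control library for all 8 genes, a pattern of 39.9% of genes, while 91.9% did not overlap in either direction.

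Other genes of the pathway passed in neither comparison within a set. Tested were 7 of 17 other metalloproteinases, 5 of 9 other inhibitors, 12 of 13 activators and partners and 8 of 9 ADAM genes, and 0 of each passed in PD1_Fc against Ctrl_Fc, in PDL1_Fc against Control or in the difference between them. Mmp11, or stromelysin 3, had 0 counts in PD1_Fc and 3, 3 and 1 in Ctrl_Fc (edgeR adjusted p = 0.817), and Mmp25, a leukocyte enzyme, had 1 count in each PD1_Fc library and 1, 6 and 4 in Ctrl_Fc (adjusted p = 0.926). Cd44, a hyaluronan receptor that holds Mmp9 at the cell surface, differed by 0.19 log2 (SE 0.11), Ctsk by 0.45 (SE 0.29), Slpi by -0.33 (SE 0.66), Cst3 by 0.32 (SE 0.81), Adamts4 by 1.23 (SE 0.86) and Adam9 by 0.25 (SE 0.20), with adjusted p of 0.932 to 1. In PDL1_Fc against Control, Mmp3, or stromelysin 1, had 23, 20 and 29 counts, against 49, 50 and 49 (log2 -0.83, SE 0.31, edgeR adjusted p = 1). Reck, a membrane inhibitor of metalloproteinases, had 14, 16 and 13 counts in PDL1_Fc, against 9, 14 and 4 in Control (log2 0.88, SE 0.41, adjusted p = 1). Adamts1, an aggrecan-cutting protease, had 27, 39 and 47 counts, against 62, 70 and 69 (log2 -0.62, SE 0.28, adjusted p = 1). Adam10 differed by 0.21 log2 (SE 0.11), Plau by -0.13 (SE 0.10), Bsg by -0.12 (SE 0.10) and Mmp28 by -0.31 (SE 0.32), each with an adjusted p of 1. In Ctrl_Fc against Control 6 of the 7 other metalloproteinases fell and 1 rose, as did 4 and 1 of the 5 inhibitors, 11 and 0 of the 12 partners, and 6 and 2 of the 8 ADAM genes. Over all genes 91.8% were called there in either direction and 47.4% were called lower. Reck was the inhibitor that rose, with 37, 56 and 92 counts in Ctrl_Fc, against 9, 14 and 4 in Control.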

How the data were processed

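The authors deposited raw read counts per gene for each bulk library. The submitters' processing notes name STAR, HTSeq and mm10, with no version in the sources used here. Deposited single-cell matrices hold UMI counts by Cell Ranger, whose version is 3.1.0 in 3 matrices per the file headers. Groups follow titles and genotype labels. File names of the flWT_CD4Cre and WT single-cell libraries contradict the labels, which were followed. Rows naming no gene, left out, held 42.6 to 44.4% of counts in PDL1_Fc and Control and 87.9 to 88.2% in PD1_Fc and Ctrl_Fc.

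Bulk counts of all 12 libraries were fitted with edgeR 4.0.16 (R 4.3.3), TMM factors, the default filter and robust quasi-likelihood tests. Adjusted p-values are Benjamini-Hochberg values over 14653 genes with a threshold of 0.05, and an SE is the change divided by the root of F. The calling step was tested on simulated data. The same replicate number in different groups does not pair libraries here (correlation of deviations -0.126 to 0.089).

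Filters kept cells of 200 or more genes with up to 10% mitochondrial UMIs (scanpy 1.11.5), the top Scrublet scores were removed at 0.8% per 1000 cells, and, among the 3 libraries that share barcodes, the copy with fewer UMIs was removed. A cell entered a class with at least 5 marker UMIs and at least 20 (macrophage, from C1qa, C1qb and C1qc, or monocyte), 50 (neutrophil) or 10 (tumour) marker UMIs per 10000. Cells over more than 1 limit were set apart as mixed, except that C1q-positive cells stayed macrophages over monocytes, and lymphoid, dendritic, stromal and mast cells were set apart too. These limits were set after the data were seen, and 2 to 82 cells of a class and library lay within 1.5 times above them. Intervals are exact at 95%, Poisson for levels and Clopper-Pearson for shares, and UMI counts share the depth limits of their class.

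The members and the 4 pathway lists were chosen with earlier results of these data known, and the markers and naming rule likewise. Named pathway genes are, in bulk, those that passed or else the 2 smallest p a list and comparison, and in single cells the 3 highest means a list and class and the first 3 past the fold each way, of which the text gives the leading ones. Some results that this rule names are not reported here. Genes set beside the members for identity (Lyz2, S100a8, Krt8, Epcam, Cldn4) and Ctsk in Mmp9-rich cells were chosen after their values were seen. Gene positions come from GENCODE M21 on GRCm38, which shares coordinates with mm10. Settings tried besides were DESeq2 1.42.0 or its size factors, no filter, fewer libraries, the replicate block, grouping by the treatment field, and, in single cells, cell means, 2 times the marker minimum, thinning, 5% mitochondrial UMIs and no doublet removal.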

Additional observations from a re-analysis of the deposited data

Results flagged for a closer look

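Cells that met no marker limit carried Mmp12. Its lowest level in such unclassed cells over the 5 libraries was 396.9 CPM in flfl, and it was 1261 CPM in flfl_CD4Cre, 1801 in flWT_CD4Cre, 1152 in CD4Cre and 870 in WT, while lymphoid cells had 14.4 to 52.6 CPM. The unclassed cells numbered 370, 387 and 232 in flfl_CD4Cre, flWT_CD4Cre and CD4Cre, and 299 and 186 in flfl and WT, and they entered no comparison. The tenth of them with the most Mmp12 held 66.4 to 95% of their Mmp12 UMIs.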

How the results depend on the processing

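In the bulk libraries no member passed in PD1_Fc against Ctrl_Fc or PDL1_Fc against Control under any alternative run. The count of genes called in PD1_Fc against Ctrl_Fc, 7, was 18 with DESeq2 (5 shared), 27 with only the groups compared (5 shared), 2 without the libraries whose title and treatment field disagree, 0 by the treatment field, and 0 to 8 without 1 library. That in PDL1_Fc against Control, 0, was 1 without the expression filter and 0 to 1 without 1 library. The difference of differences, 1, was 8 with DESeq2, 0 to 3 without 1 library, and 10130 by the treatment field, whose groups mix the 2 sets and where all 8 members passed and Mmp9 turned to 18.571 and Timp2 to 12.199 log2. The libraries share only a replicate number, and with the replicate block 7, 0 and 1 genes passed.

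In single cells the members past the fold in flfl_CD4Cre against CD4Cre, 6 over the 4 classes, were 10 with cell means. In neutrophils, 0 there, they were 5 with cell means and 1 with 2 times the marker minimum or thinned. In flWT_CD4Cre against CD4Cre, macrophages, 0, had 1 with cell means, thinned or at 5% mitochondrial UMIs. Monocytes, 3, had 6 with 2 times the minimum and 5 thinned, and neutrophils, 3, had 0 thinned. There Mmp12 turned to -0.82 with cell means, -1.61 with 2 times the minimum and -0.99 log2 thinned, and Mmp13 to -0.58 with cell means and -0.46 with 2 times the minimum. In flfl against WT, neutrophils, 2, had 1 under each of these 3, with Mmp12 at -0.07 thinned. The cause was not tested. Keeping the lower copies of shared barcodes, an alternative chosen after the data were seen, changed 1 count of members, to 2 for monocytes of flWT_CD4Cre against CD4Cre. Single libraries and shallow neutrophils limit these values.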
